A study of Rattus norvegicus with 13 samples.

Results

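The nuclear and mitochondrial genes of respiratory complexes II to V were followed in the ventricular zone (VZ) of newborn rats. Members were taken by name from the deposited table, as every row named *Sdha* to *Sdhd*, *Uqcr*, *Cyc1*, *Cox4* to *Cox8*, *Atp5*, *Mt-cyb*, *Mt-co1* to *Mt-co3*, *Mt-atp6* or *Mt-atp8* with a mean normalized count of at least 10 over all pups. This gave 43 of 14716 rows, for 42 gene names, since *Atp5mk* has 2 rows. Rows carry Ensembl transcript identifiers, and whether a row counts 1 transcript or the whole gene is not given in the sources used here. A second *Uqcrb* row had a mean of 5.17 and was left out. The nuclear genome encodes 37 of the rows and the mitochondrial genome 6. Complex II has 4 rows, complex III has 9, complex IV has 13 and complex V has 17.

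RNA was sequenced from the posterior VZ, cut out by laser capture, of male Long Evans pups on postnatal day 2 (PN2), with 1 pup from each litter. The 7 control pups came from dams given vehicle water (0 ppm), and the 6 exposed pups from dams whose drinking water held 3 ppm propylthiouracil (PTU), an inhibitor of thyroid hormone synthesis. The labels call the control pups euthyroid, and state that the exposure made the offspring hypothyroid. The captured tissue holds several cell types, so fewer cells of a type and less RNA per cell cannot be told apart.

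The respiratory chain passes electrons from food molecules to oxygen and pumps protons across the inner mitochondrial membrane. Succinate dehydrogenase (complex II) feeds electrons from the citric acid cycle to ubiquinone, the cytochrome bc1 complex (complex III) passes them to cytochrome c, cytochrome c oxidase (complex IV) hands them to oxygen, and the ATP synthase (complex V) uses the proton gradient to make ATP. Complex II is built from nuclear genes alone, whereas complexes III, IV and V join nuclear subunits to a catalytic or membrane core that the mitochondrial genome encodes. Thyroid hormone is a well known regulator of mitochondrial content in many tissues, and neural progenitors rely more on oxidative phosphorylation as they differentiate.

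Promoters of nuclear members were searched for the letters of 3 factors known for respiratory genes. The windows printed here show the ETS letters at members with opposite differences, and 1 NRF1 match. RefSeq promoters (assembly GRCr8, 250 bases before to 50 after the start) were matched for 30 of the 36 nuclear gene names. The ETS core bound by GABPA (CCGGAAG, either strand) was present in 11 of the 30, or 36.7%, against 8.75% of all 33469 promoters of the same length. The NRF1 core (GCGCATGC, either strand) was in 5 (16.7%, against 2.47%) and the YY1 core (AAGATGGC, either strand) in 5 (16.7%, against 3.17%). The NRF1 letters overlap their own reverse complement, and the ETS and YY1 letters share their AAG. The windows below, printed 5′ to 3′ along the gene with the motif in capitals, come from members that were higher (*Cox4i1*, *Atp5f1a*) or lower (*Cox5b*, *Atp5pf*, *Atp5po*) in the comparison that follows.
*Cox4i1*, ETS, chr19:65630376-65630402, plus strand: ccgtcttgctCTTCCGGtgcgggaccc
*Atp5f1a*, ETS, chr18:73567467-73567493, plus strand: aagggcggtaCTTCCGGgtcaggtggg
*Cox5b*, ETS, chr9:46417813-46417839, plus strand: ctgtctgttcCCGGAAGtgcatctgct
*Atp5pf*, ETS, chr11:37375169-37375195, minus strand: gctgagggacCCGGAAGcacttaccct
*Atp5po*, NRF1, chr11:44657525-44657552, minus strand: acgccgacgcGCGCATGCgctctggcat
Among the 11 members with the ETS letters, 7 lay above and 4 below the control level, with a median log2 fold change of 0.01, and the members without them had a median of 0.11. The NRF1 letters were found at 3 members that were higher and 2 that were lower (median 0.005, against 0.04 without them), and the YY1 letters at 2 that were higher and 3 that were lower (median -0.24, against 0.04 without them). A match describes the letters in a window and is neither a shown binding site nor a cause.

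Depth and makeup of the libraries bear on every value below. The authors reported that the captured VZ RNA was partly degraded, while RNA of control cells from the slides was intact. The part of RNA quality in the values was not tested. Between 22295808 and 44383053 reads per pup were estimated to lie behind the normalized counts, and the 3 rows with the most reads took 32.4 to 60.1% of them in control pups and 23.9 to 57.0% in PTU exposed pups. Defining genes of the VZ were abundant: the 10 radial glia markers had summed counts of 84208 to 114063 in control and 70153 to 91548 in PTU exposed pups, and all 10 were lower with PTU (median log2 fold change -0.28). Of 12 neuron markers 11 were higher (median 0.33, sums 58717 to 82921 in control and 74610 to 131249 in PTU exposed pups). The 8 markers of the choroid plexus, a tissue next to the VZ, were all lower (median -0.72, sums 49397 to 138726 in control and 23027 to 99226 in PTU exposed pups), and none of the markers measured was at 0 in all pups. Markers of other cells were split: those of oligodendrocyte precursors (5 of 5, median 0.24), endothelium (5 of 6, median 0.25) and microglia (5 of 7, median 0.06) were mostly higher, and those of ependyma (3 of 4, median -0.27) and red cells (2 of 2, median -0.34) mostly lower.

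The question was whether transcripts of the respiratory complexes differ between PTU exposed and control VZ, and whether genes of both genomes do so alike. Normalized counts were compared as log2(normalized count + 1) with limma over all 14606 rows with a mean of at least 10, with Benjamini-Hochberg adjustment over these rows. No member passed the threshold: 0 of 43 rows, and 0% of all rows tested, had an adjusted p of at most 0.05. This outcome belongs to limma on log2 values, since the authors' DESeq2 comparison of these pups did call genes at q of at most 0.05. The smallest value was 0.133 among members (*Mt-co2*) and 0.0981 among all rows. Without PTU pup 2, 179 of the 14606 rows had an adjusted p under the threshold (limma), and *Mt-co2* was the 1 member among them (0.0423). An unadjusted p under 0.05 was found for 14 members, against 16.3% of all rows. Of these, 10 were higher with PTU, where 8.11% of all rows were, and 4 were lower, where 8.2% of all rows were. The values that follow are therefore sizes and spreads, not called changes. Leaving out single pups moved the 14 to between 10 (without control pup 6) and 19 (without PTU pup 2), while 2421 and 2997 of all rows had such a p in these fits, against 2383 with all pups. The 4 lower rows became 2 without PTU pup 3, where 1040 of all rows were lower at this p. Scaling all pups to one equal total, which moved the median log2 fold change of all rows to 0.20, gave a split of 12 higher and 0 lower members, where all rows split into 1584 higher and 81 lower.

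Higher values were more frequent than lower ones. In all, 32 of the 43 rows (74.4%) were higher in PTU exposed pups, against 50.7% of all rows tested, and the median log2 fold change was 0.11, against 0.00 over all rows. The 6 mitochondrial rows were all higher, with a median of 0.54 and 5 unadjusted p-values under 0.05. Of the 37 nuclear rows, 26 were higher and 11 lower, with a median of 0.02, and 9 had an unadjusted p under 0.05 (5 higher, 4 lower). Among all rows tested, 16.3% had such a p (8.11% higher, 8.2% lower). Scaled to the same total the medians were 0.74 and 0.23, against 0.20 for all rows. In 0 of 43 members did the groups not overlap, close to the 0.596% of all rows whose groups did not overlap. No test was run on these counts or medians, since members were chosen by name and share pups, so that their rows are not independent.

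**Figure D1:**
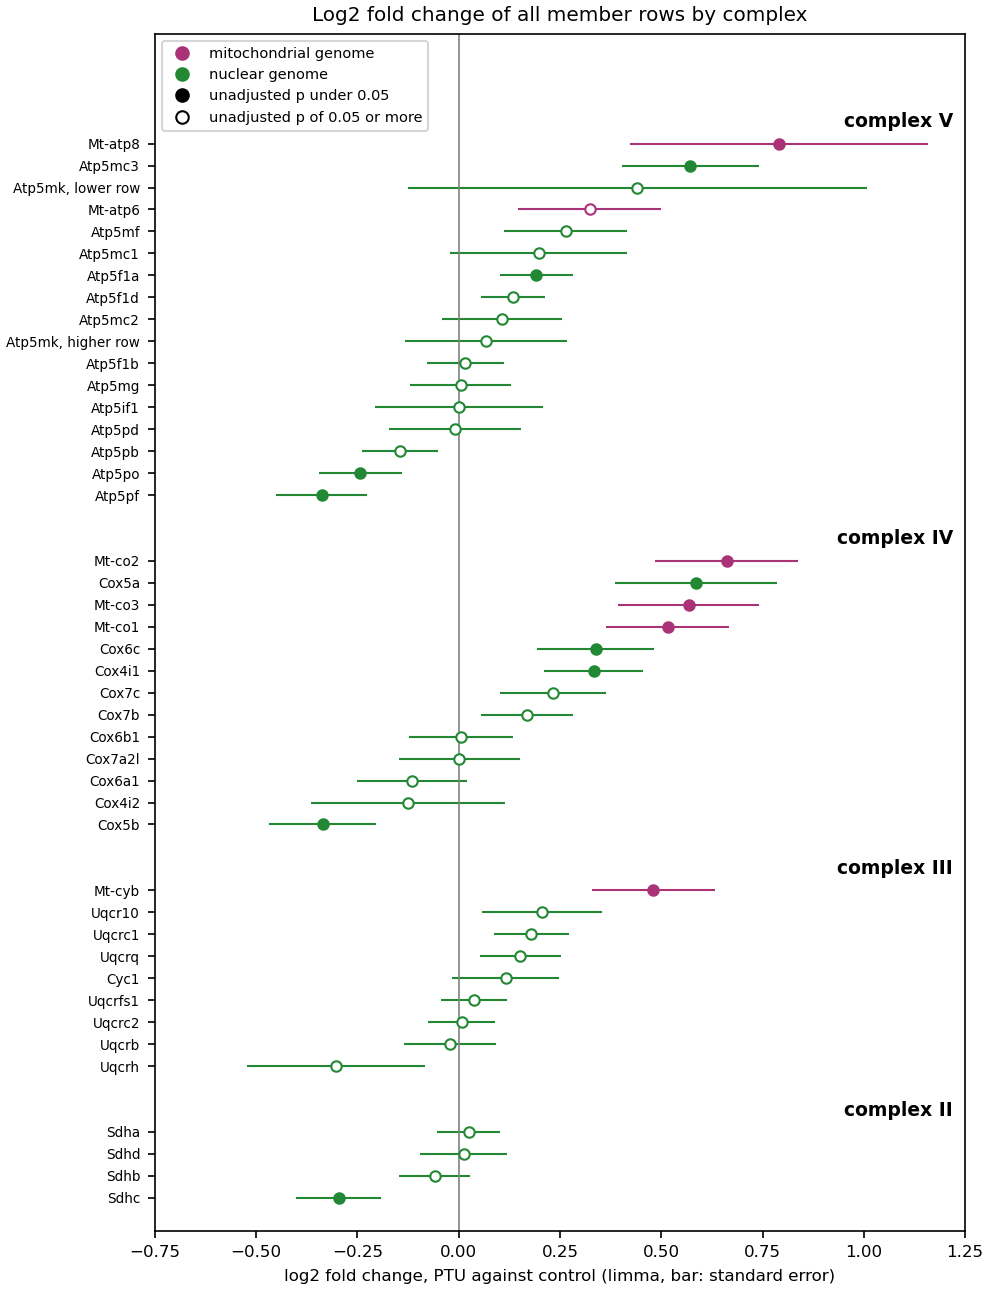
Log2 fold change of PTU exposed against control pups (x axis, limma, bars show the standard error) for each of the 43 member rows, grouped by complex and coloured by genome of origin, with filled points for an unadjusted p under 0.05. The 6 mitochondrial rows lie between 0.32 and 0.79, whereas the nuclear rows spread from -0.34 to 0.59 around a median of 0.02.

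In complex III, the single mitochondrial gene *Mt-cyb* encodes cytochrome b, which carries both ubiquinone sites of the complex. Its normalized count was 253 in the lowest, 318 in the median and 379 in the highest control pup, and 365, 444 and 648 in PTU exposed pups. The groups overlapped, with 4 of 6 PTU exposed pups above the highest control pup and PTU pup 4 the highest of all. The means were 326 ± 52.6 (SD, n = 7) and 460 ± 105 (SD, n = 6), a log2 fold change of 0.48 ± 0.15 (SE; limma adjusted p = 0.171; two-sided exact permutation test without adjustment, p = 0.0117).

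*Mt-co1*, *Mt-co2* and *Mt-co3* encode the core of complex IV, and the first 2 of them hold its heme and copper centers. *Mt-co2* was measured at 215, 342 and 400 in the lowest, median and highest control pup, and at 357, 518 and 685 in PTU exposed pups. Only PTU pup 2, the lowest of its group, lay within the control range, and 5 of 6 PTU exposed pups were above the highest control pup. This was the smallest p among members, with means of 331 ± 74.5 and 521 ± 113 (SD, n = 7 and 6) and a log2 fold change of 0.66 ± 0.18 (SE; limma adjusted p = 0.133; two-sided exact permutation test without adjustment, p = 0.00466). *Mt-co1* ran from 502 through a median of 766 to 919 in control pups and from 887 through 1045 to 1559 in PTU exposed pups, and 4 of 6 PTU exposed pups exceeded every control pup. Its log2 fold change was 0.52 ± 0.15 (SE; limma adjusted p = 0.148; two-sided exact permutation test without adjustment, p = 0.00583). *Mt-co3* ran from 319 through 419 to 567 in control pups and from 477 through 585 to 936 in PTU exposed pups. Here 3 of 6 PTU exposed pups exceeded every control pup, with a log2 fold change of 0.57 ± 0.17 (SE; limma adjusted p = 0.156; two-sided exact permutation test without adjustment, p = 0.0128).

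*Mt-atp6* and *Mt-atp8* encode membrane subunits of the ATP synthase, and *Mt-atp6* forms part of the proton channel. Their reading frames overlap on the mitochondrial genome, and the authors' counting divided shared reads by estimation, so the split between these rows is uncertain. *Mt-atp6* ran from 975 through 1436 to 1838 in control pups and from 1254 through 1633 to 2336 in PTU exposed pups, with 3 of 6 PTU exposed pups above every control pup. It had the smallest difference among mitochondrial members (log2 fold change 0.32 ± 0.18, SE; limma adjusted p = 0.367; two-sided exact permutation test without adjustment, p = 0.145), which was 0.53 with equal totals and 0.49 with the share of the 3 highest rows as a covariate. The *Mt-atp6* difference fell to 0.23 without PTU pup 4 and to 0.27 with pups weighted by quality. *Mt-atp8* ran from 42.3 through 188 to 358 in control pups and from 223 through 263 to 307 in PTU exposed pups. No PTU exposed pup was above the highest control pup, and the control pups varied far more, with a coefficient of variation of 61.2% against 12.5%. Its log2 fold change of 0.79 ± 0.37 (SE; limma adjusted p = 0.298; two-sided exact permutation test without adjustment, p = 0.0979) was 0.49 without control pup 6, the pup at 42.3.

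**Figure D2:**
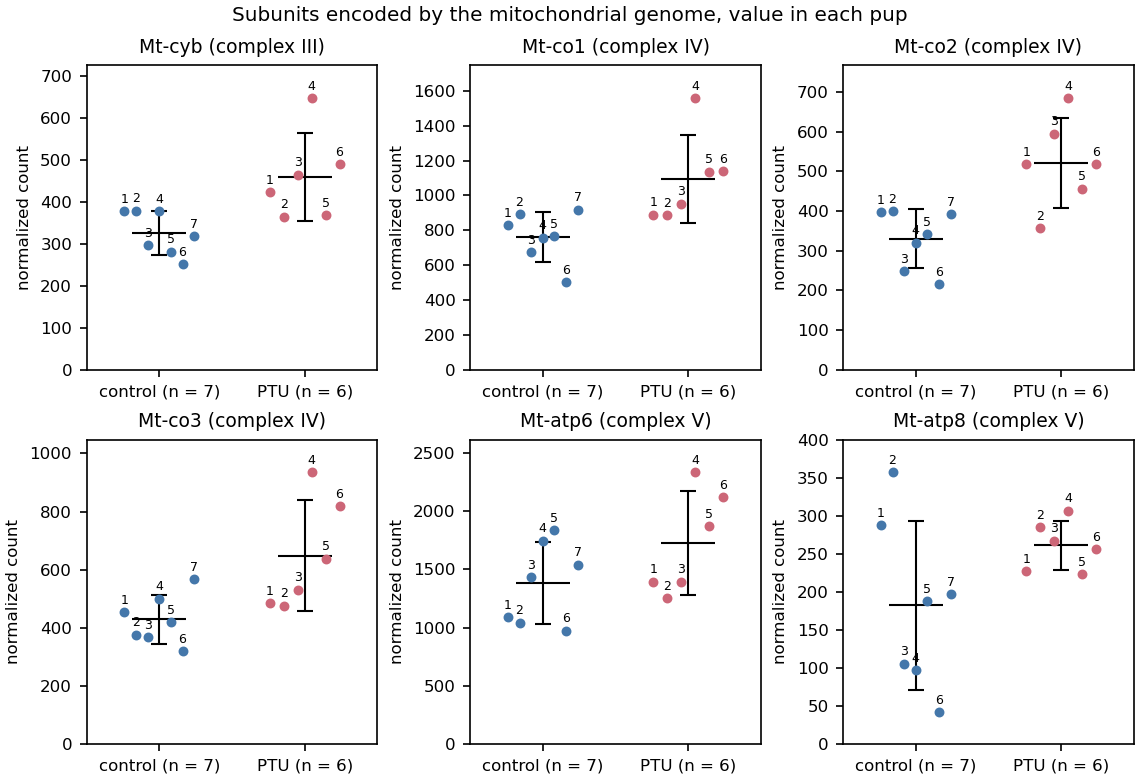
Normalized count (y axis, from 0) of the 6 members encoded by the mitochondrial genome in each pup, numbered by replicate, with the mean and SD of each group in black. Control pup 6 is the lowest pup in all 6 panels, and PTU pup 4 the highest in 5 of them.

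The same pups set the ends of the range across mitochondrial members. Control pup 6 was the lowest of all pups in 6 of 6 rows, and PTU pup 4 the highest in 5 of 6, while control pup 2 was the highest for *Mt-atp8*. The summed normalized count of the 6 rows ran from 2306 (control pup 6) through a median of 3448 to 3935 in control pups, and from 3625 through 4451 to 6471 (PTU pup 4) in PTU exposed pups. Against this, the 37 nuclear rows summed to 57813 to 65370 in control pups and 59165 to 65950 in PTU exposed pups, ranges that nearly coincided. The mitochondrial rows made up 3.73 to 6.17% of the counts of all members in control pups and 5.21 to 8.97% in PTU exposed pups. The mitochondrial median of 0.54 was 0.46 without control pup 6 and 0.43 without PTU pup 4.

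**Figure D3:**
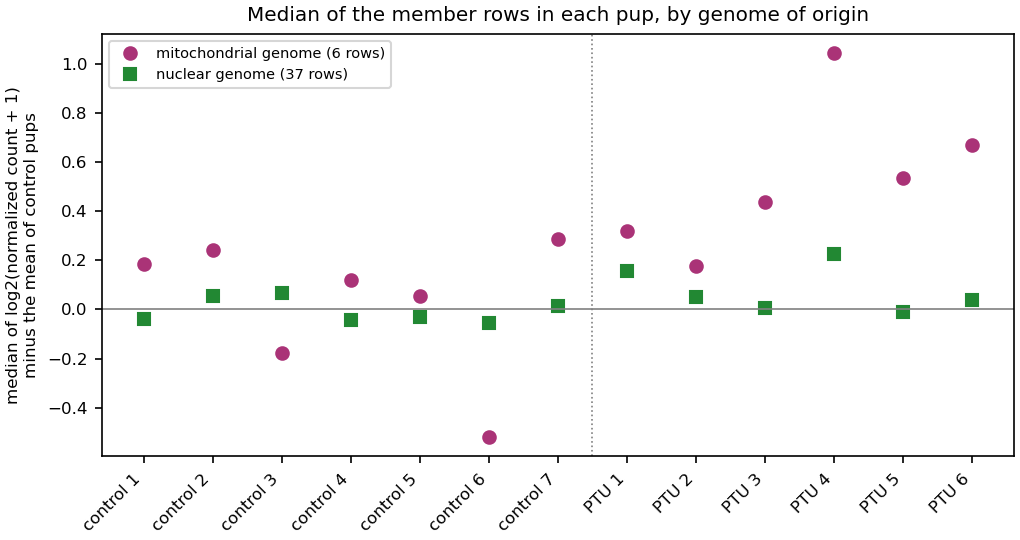
Median over the mitochondrial (circles, 6 rows) and nuclear rows (squares, 37 rows) of log2(normalized count + 1) minus the mean of the control pups (y axis), for each pup (x axis). The mitochondrial medians run from -0.52 to 0.29 in control pups and from 0.18 to 1.04 in PTU exposed pups, whereas the nuclear medians stay between -0.06 and 0.22 in all pups.

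The marker differences given above were between the same groups of pups. With the neuron marker score as a covariate, the mitochondrial median was 0.60, and *Mt-co2* had a log2 fold change of 0.62 (limma adjusted p = 0.381). The radial glia score gave a mitochondrial median of 0.52, the choroid plexus score 0.70 and the share of the 3 highest rows 0.56. With the radial glia score, 4 members had an unadjusted p under 0.05 in place of 14, and 677 of all rows in place of 2383. The markers behind these scores were themselves shifted between the groups, in the same pups, so the fits cannot tell cell makeup from exposure. The part of cell makeup in the values was not tested.

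Complex II comprises 4 nuclear genes. *Sdhc* encodes a membrane anchor of the complex, and was measured at 1809, 2334 and 2739 in the lowest, median and highest control pup and at 1656, 1805 and 2419 in PTU exposed pups. Only PTU pup 2 lay above the control mean, and 3 of 6 PTU exposed pups were below every control pup. The means were 2325 ± 288 and 1896 ± 282 (SD, n = 7 and 6), a log2 fold change of -0.30 ± 0.10 (SE; limma adjusted p = 0.187; two-sided exact permutation test without adjustment, p = 0.0233). It was -0.13 with the radial glia score as a covariate and -0.09 with equal totals, which moved all rows by 0.20. The other genes of the complex were close to the control level. *Sdha*, the flavoprotein that oxidizes succinate, averaged 2552 ± 225 in control and 2592 ± 191 in PTU exposed pups (log2 fold change 0.02 ± 0.08, SE). *Sdhb*, the iron-sulfur subunit, had a log2 fold change of -0.06 ± 0.09 (SE), and *Sdhd*, the other membrane anchor, of 0.01 ± 0.11 (SE).

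Complex III had 8 nuclear rows, none of them with an unadjusted p under 0.05, where 16.3% of all rows had one. Of these, 6 were higher and 2 lower, where 50.7% of all rows were higher, with a median log2 fold change of 0.08. *Uqcrq*, a small structural subunit, averaged 2150 ± 260 in control and 2393 ± 325 in PTU exposed pups (log2 fold change 0.15 ± 0.10, SE; limma adjusted p = 0.457). The difference was 0.09 without PTU pup 2, 0.08 with the share of the 3 highest rows as a covariate and 0.35 with equal totals. *Uqcrh*, the hinge protein near the cytochrome c site, had the lowest log2 fold change (-0.30 ± 0.22, SE; limma adjusted p = 0.505). It varied widely in both groups, from 492 to 1220 in control and from 374 to 1052 in PTU exposed pups, so that difference was well within the spread. It was -0.10 with equal totals, -0.15 without PTU pup 4, -0.45 without PTU pup 2 and -0.61 with the choroid plexus score as a covariate. The 6 other nuclear rows of complex III, among them *Cyc1*, which encodes cytochrome c1, and *Uqcrfs1*, which encodes the Rieske iron-sulfur protein, lay between -0.02 and 0.21.

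In complex IV, 7 of 13 rows had an unadjusted p under 0.05, of which 3 were mitochondrial, where 16.3% of all rows had one. Its 10 nuclear rows had a median log2 fold change of 0.09, with 7 higher and 3 lower, and 4 of them had an unadjusted p under 0.05. *Cox5a* and *Cox5b* both encode matrix-side subunits, and they lay on opposite sides of the control level. *Cox5a* ran from 101 through a median of 131 to 205 in control pups and from 150 through 196 to 272 in PTU exposed pups. All 6 PTU exposed pups were above the control mean and 3 above every control pup (log2 fold change 0.59 ± 0.20, SE; limma adjusted p = 0.177; two-sided exact permutation test without adjustment, p = 0.0146). *Cox5b* ran from 887 through 1068 to 1478 in control pups and from 698 through 827 to 1114 in PTU exposed pups. Here 4 of 6 PTU exposed pups were below every control pup, and 1, PTU pup 2, was above the control mean (log2 fold change -0.34 ± 0.13, SE; limma adjusted p = 0.233; two-sided exact permutation test without adjustment, p = 0.0373). With equal totals *Cox5b* was at -0.13.

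*Cox4i1* encodes the regulatory subunit IV that binds ATP, and *Cox4i2* its isoform known from lung and from low oxygen. *Cox4i1* was measured at 1678, 2153 and 2753 in the lowest, median and highest control pup and at 1969, 2735 and 3380 in PTU exposed pups. Of the PTU exposed pups 5 were above the control mean and 3 above every control pup (log2 fold change 0.33 ± 0.12, SE; limma adjusted p = 0.204; two-sided exact permutation test without adjustment, p = 0.0321), and the difference was 0.53 with equal totals. *Cox4i2* averaged 131 ± 35.1 in control and 124 ± 50.9 in PTU exposed pups, a difference within the spread (log2 fold change -0.13 ± 0.24, SE). It was -0.30 without PTU pup 2 and -0.01 without control pup 5. *Cox6c*, a small membrane subunit, ran from 612 through 809 to 1021 in control pups and from 742 through 1020 to 1514 in PTU exposed pups. Its highest value was again that of PTU pup 4, and its log2 fold change of 0.34 ± 0.14 (SE; limma adjusted p = 0.265; two-sided exact permutation test without adjustment, p = 0.0460) was 0.22 without this pup, 0.59 with the choroid plexus score as a covariate (limma adjusted p = 0.0675) and 0.54 with equal totals.

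The *Cox6a*, *Cox6b*, *Cox7a* and *Cox7b* families of complex IV were each followed through a single gene. *Cox6a1* had a log2 fold change of -0.12 ± 0.14 (SE), *Cox6b1* of 0.01 ± 0.13, *Cox7a2l*, which helps to join complexes III and IV, of 0.00 ± 0.15, and *Cox7b* of 0.17 ± 0.11 (0.37 with equal totals). None of them had an unadjusted p under 0.05. *Cox7c*, the last nuclear row of the complex, was at 0.23 ± 0.13. No row carried the names of their paralogs *Cox6a2*, *Cox6b2*, *Cox7a1*, *Cox7a2* and *Cox7b2*, or of *Cox8a* and *Cox8b*. The counts and medians of complex IV therefore leave these subunits out.

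Complex V had 15 nuclear rows, 11 higher and 4 lower, with a median log2 fold change of 0.07, and 4 of them had an unadjusted p under 0.05 (2 higher, 2 lower), where 16.3% of all rows had one. *Atp5mc3*, 1 of 3 genes for the c subunit whose ring turns in the membrane, ran from 276 through a median of 422 to 515 in control pups and from 435 through 593 to 886 in PTU exposed pups. All 6 PTU exposed pups were above the control mean and 4 above every control pup (log2 fold change 0.57 ± 0.17, SE; limma adjusted p = 0.148; two-sided exact permutation test without adjustment, p = 0.00816). *Atp5f1a*, the alpha subunit of the catalytic head, ran from 6039 through 6936 to 8155 in control pups and from 7077 through 7978 to 9212 in PTU exposed pups. Of the PTU exposed pups 3 were above every control pup (log2 fold change 0.19 ± 0.09, SE; limma adjusted p = 0.304; two-sided exact permutation test without adjustment, p = 0.0559). It was 0.39 with equal totals, 0.29 with the choroid plexus score and 0.12 with the share of the 3 highest rows as a covariate.

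*Atp5pf* and *Atp5po* encode subunits of the peripheral stalk, which holds the catalytic head in place. *Atp5pf*, coupling factor 6, ran from 973 through 1094 to 1257 in control pups and from 650 through 886 to 1078 in PTU exposed pups. None of the 6 PTU exposed pups reached the control mean and 4 were below every control pup (log2 fold change -0.34 ± 0.11, SE; limma adjusted p = 0.174; two-sided exact permutation test without adjustment, p = 0.00758). *Atp5po*, the OSCP subunit that links stalk and head, ran from 1297 through 1530 to 1823 in control pups and from 1125 through 1359 to 1438 in PTU exposed pups. None of the 6 PTU exposed pups reached the control mean here either (log2 fold change -0.24 ± 0.10, SE; limma adjusted p = 0.263; two-sided exact permutation test without adjustment, p = 0.0408). *Atp5pf* was at -0.14 and *Atp5po* at -0.04 with equal totals, and *Atp5pf* was at -0.20 with the neuron score and also with the radial glia score as a covariate. With the share of the 3 highest rows *Atp5po* was at -0.16.

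*Atp5f1b*, the catalytic beta subunit, averaged 10222 ± 847 in control and 10405 ± 1575 in PTU exposed pups (log2 fold change 0.02 ± 0.09, SE). *Atp5if1* encodes the inhibitor that stops the ATP synthase from running backwards. Its log2 fold change was 0.00 ± 0.21 (SE), although it varied from 4103 to 8116 in control and from 3536 to 8801 in PTU exposed pups. The high pups were control 1 and 2 and PTU 1 and 2, all at 6397 or more, and all other pups were at 5471 or less.

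The c-subunit genes encode the same mature protein behind different targeting peptides, so their proportions were followed within pups. *Atp5mc1* averaged 149 ± 32.3 in control and 174 ± 52.9 in PTU exposed pups (log2 fold change 0.20 ± 0.22, SE), and *Atp5mc2* averaged 468 ± 58.9 and 514 ± 135 (0.11 ± 0.15, SE), differences within the spread. That of *Atp5mc1* was 0.09 without PTU pup 4, 0.11 without control pup 6, 0.34 without PTU pup 6, 0.40 with equal totals and 0.57 with the choroid plexus score as a covariate. That of *Atp5mc2* was 0.00 without PTU pup 4, 0.31 with equal totals, and 0.25 (choroid plexus score) to 0.33 (radial glia score) with the 4 covariates tried. The log2 ratio of *Atp5mc3* to *Atp5mc2* ran from -0.55 to -0.07 in control and from -0.18 to 0.81 in PTU exposed pups, a difference of means of 0.46. For *Atp5mc3* to *Atp5mc1* the difference was 0.37, with 0.70 to 1.90 in control and 1.51 to 2.16 in PTU exposed pups. The log2 ratio of *Cox5a* to *Cox5b* ran from -3.51 to -2.46 in control and from -2.57 to -1.45 in PTU exposed pups, a difference of 0.92, the largest of the 4 ratios computed. For *Cox4i1* to *Cox4i2* the difference was 0.46, with 3.72 to 4.44 in control and 3.17 to 5.26 in PTU exposed pups, and it was 0.72 without PTU pup 2 and 0.31 without PTU pup 4. All 6 PTU exposed pups were above the control mean in the first 3 of these ratios and 5 in that of *Cox4i1*. These ratios were chosen after the values were seen and are given without a test.

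**Figure D4:**
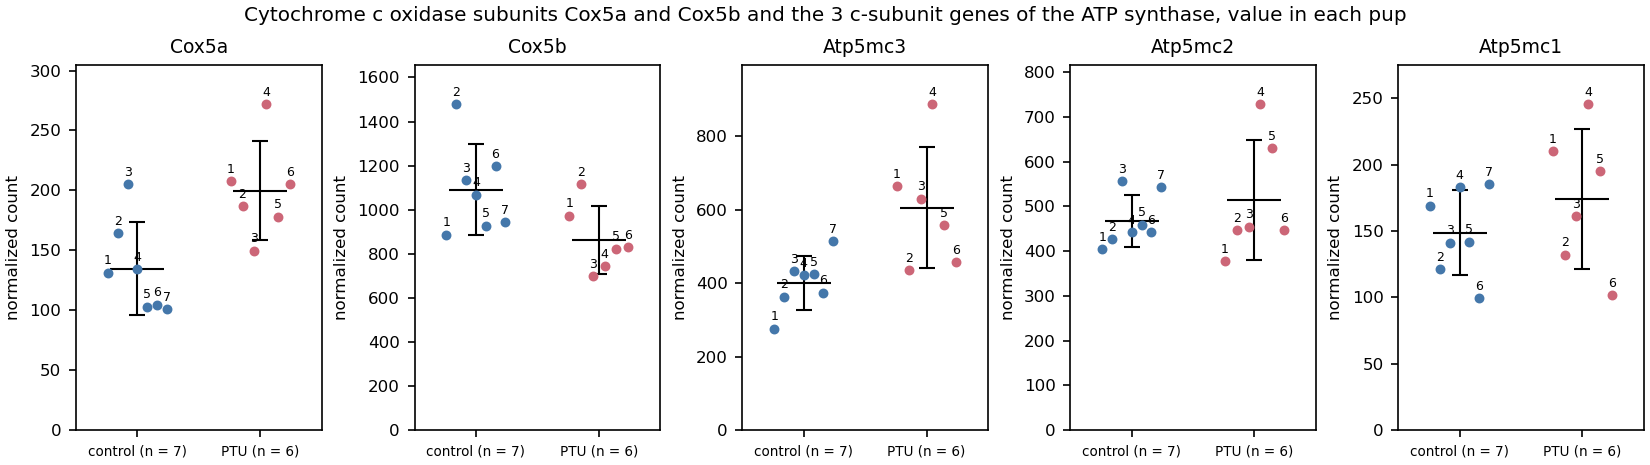
Normalized count (y axis, from 0) of *Cox5a*, *Cox5b*, *Atp5mc3*, *Atp5mc2* and *Atp5mc1* in each pup, numbered by replicate, with the mean and SD of each group in black. *Cox5a* and *Atp5mc3* average 148% and 151% of the control mean in PTU exposed pups, *Cox5b* averages 79.1%, and *Atp5mc2* and *Atp5mc1* overlap widely.

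The 14 members outside the rule for named genes (11 higher, 3 lower) had log2 fold changes from -0.14 to 0.44. The value at 0.44 was that of the second *Atp5mk* row, which had a mean of only 30.6 and a standard error of 0.57. Several nuclear members have near-identical retrocopies in the rat genome, and how the authors' estimation divided reads among such copies is uncertain for these rows.

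Genes that work next to these complexes were taken from lists. The 7 complex I subunits of the mitochondrial genome were all higher, with a median log2 fold change of 0.53, and 5 of them had an unadjusted p under 0.05, where 50.7% of all rows were higher and 16.3% had such a p (*Mt-nd1* 0.53 ± 0.14, *Mt-nd2* 0.65 ± 0.19, *Mt-nd4* 0.55 ± 0.15, *Mt-nd4l* 0.98 ± 0.46 and *Mt-nd5* 0.52 ± 0.15, SE). PTU pup 4 was again the highest pup in each of these rows, which share pups with the mitochondrial members and are not independent of them. The assembly factors of complexes II to V, nuclear genes that insert cofactors and join subunits, gave 17 higher and 11 lower rows of 28, a median of 0.04 and 0 unadjusted p-values under 0.05. Among the carriers, *Slc25a4*, which exchanges ADP and ATP across the inner membrane, was at 0.28 ± 0.10 (SE; limma adjusted p = 0.186; two-sided exact permutation test without adjustment, p = 0.0105) with all 6 PTU exposed pups above the control mean. Its paralog *Slc25a5* was at -0.21 ± 0.09 (SE; limma adjusted p = 0.295; two-sided exact permutation test without adjustment, p = 0.0530), with 1 pup above the control mean. *Cycs*, cytochrome c itself, averaged 600 ± 156 in control and 727 ± 148 in PTU exposed pups (0.29 ± 0.17, SE).

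**Figure D5:**
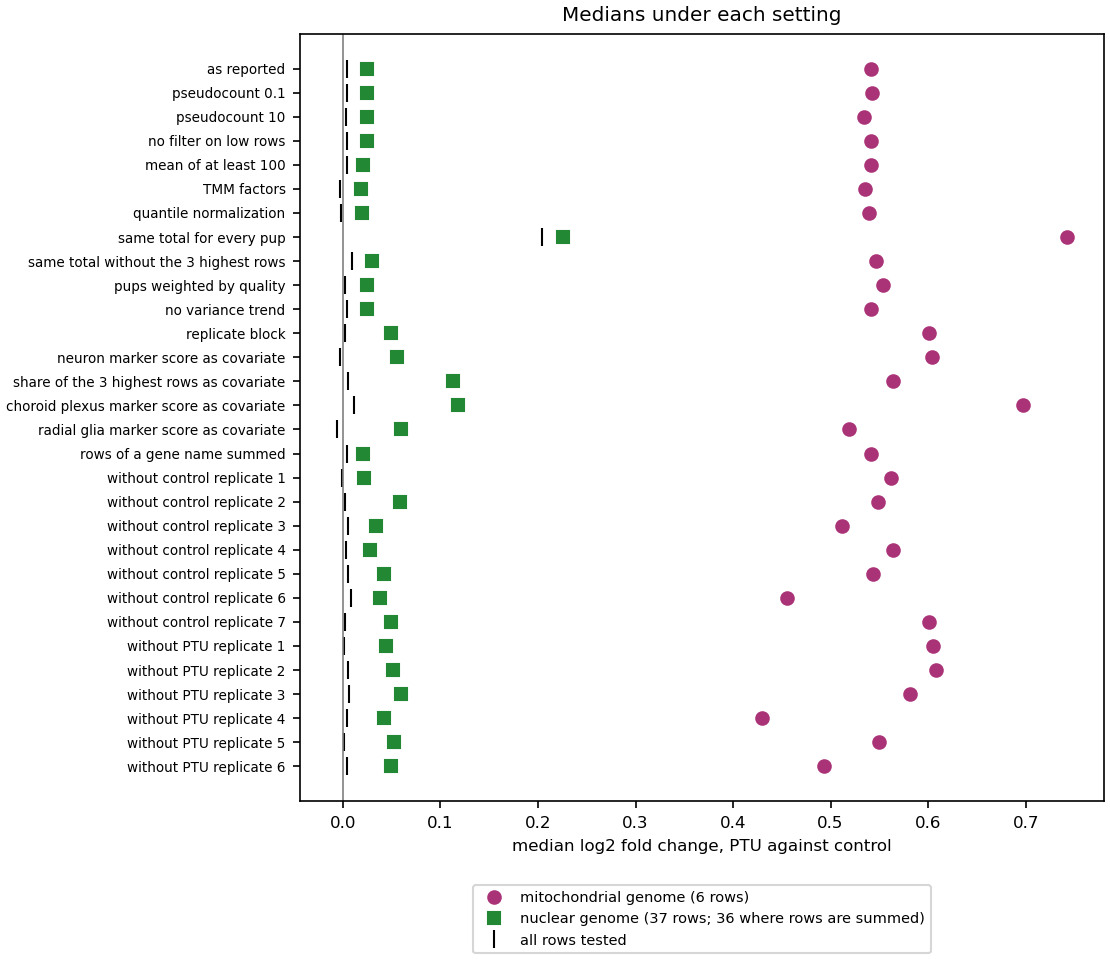
Median log2 fold change (x axis) of the mitochondrial rows (circles), the nuclear rows (squares) and all rows tested (ticks) for each way of processing the values and with each pup left out (y axis). The mitochondrial median stays between 0.43 and 0.74 and lies right of the nuclear median in every line; scaling every pup to the same total moves all rows to 0.20.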

How the data were processed

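Total RNA libraries of 7 control and 6 PTU exposed pups were used. The authors trimmed reads with Trimmomatic, used STAR 2.7.8a for alignment to mRatBN7.2 (rn7) and Partek's expectation/maximization counting, and scaled each pup by its DESeq2 median ratio factor, so what was deposited is a signal in normalized counts and not raw reads. The methods name a RefSeq annotation, whereas rows carry Ensembl transcript identifiers, so what a row counts (a transcript or a gene) is uncertain. Names are from the deposited table, and 1488 rows have none. Columns of the authors' comparison (p-value, FDR, ratio, fold change and group means) were not used, and 0 columns of values per pup were left out. Of the values from 20 to 150, 88.8 to 90.3% per pup were whole multiples of 1 step (tolerance 0.05 read), short of the 95% needed to recover reads, so no count model was run. Depth is that estimate, and limits precision by counting error only.

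Rows with a mean of at least 10 (14606 of 14716) were compared as log2(normalized count + 1), a scale that shrinks differences of low rows, with limma 3.58.1 in R 4.3.3 (two-sided, variance trend) and Benjamini-Hochberg adjustment (threshold 0.05). Single rows were also compared by an exact permutation test over all 1716 regroupings (smallest p 0.000583). Both were tested on simulated data. Medians, sums and ratios used Python 3.11.15, numpy 2.4.6 and pandas 2.3.3, and figures matplotlib 3.10.9. Transcript lengths were not used here, so sums, shares and ratios of rows refer to counts, not to transcripts.

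Named genes were mitochondrial rows, nuclear rows with an unadjusted p under 0.05, the nuclear row with the highest mean count and that with the lowest fold change of each complex, isoform families, *Atp5if1* and all *Sdh* rows; others named were chosen after their values were seen. Members and lists were chosen with earlier results of these data known. Alternatives were pseudocounts of 0.1 and 10, no filter, a minimum mean of 100, TMM and quantile normalization, equal totals (also without the 3 highest rows), weighted pups, no trend, the replicate block, a neuron score and the share of the 3 highest rows as covariates, summed rows, and each pup left out. Choroid plexus and radial glia scores were added after seeing the data.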

Additional observations from a re-analysis of the deposited data

Results flagged for a closer look

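Of 86 groups of a member row examined, 1 held a pup far from the rest of its group. *Uqcr10*, a small subunit of complex III, had a normalized count of 437 in control pup 1, whereas the other control pups ran from 329 to 369. The gap was 0.638 of the range of the group. About 1 in 20 groups would be singled out by chance.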

How the results depend on the processing

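The mitochondrial median kept its sign under every alternative, from 0.43 (without PTU pup 4) to 0.74 (same total); its range over single pups left out was 0.43 to 0.61, and that of the nuclear median 0.022 to 0.060. The nuclear median was 0.23 with the same total for every pup, 0.11 with the share of the 3 highest rows and 0.12 with the choroid plexus score as a covariate. Members with an adjusted p of at most 0.05 (limma) numbered 0 to 1 over single pups left out, the 1 being *Mt-co2* (0.76, adjusted p = 0.0423 without PTU pup 2, where 179 of all rows passed; 7 did without control pup 6). Members with an unadjusted p under 0.05 numbered 10 to 19, with 7 to 13 higher and 2 to 6 lower, where all rows numbered 1791 (without PTU pup 6) to 2997 (without PTU pup 2). Lower members numbered 0 with the same total (81 of all rows) and 2 with the neuron score (752 of all rows). Higher members numbered 16 with the choroid plexus score (1022 of all rows). With the radial glia score 4 members had an unadjusted p under 0.05, 3 higher and 1 lower, where 677 of all rows had one. The cause of these shifts was not tested, except that the same total shifts all rows.

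Signs were followed for the named members alone, and turned in these. *Atp5if1* was at -0.0058 with TMM factors, -0.015 with quantile normalization, -0.0048 with weighted pups, -0.034 with the replicate block, and -0.11, -0.25, -0.16 and -0.044 with the neuron, highest-row, choroid plexus and radial glia covariates. *Cox6b1* was at -0.00030 with TMM factors, -0.033 with weighted pups, -0.023 with the replicate block, and -0.052, -0.087 and -0.062 with the highest-row, choroid plexus and radial glia covariates. *Cox7a2l* was at -0.0043 with TMM factors and -0.00013 with quantile normalization, *Sdhd* at -0.0097 with weighted pups and *Atp5f1b* at -0.011 with the radial glia score. With the same total *Cox6a1* was at 0.086, *Sdhb* at 0.14 and *Cox4i2* at 0.074. *Sdhb* and *Cox4i2* were at 0.027 and 0.033 with the neuron score and at 0.023 and 0.43 with the radial glia score. Over single pups left out the ranges were -0.0083 to 0.060 for *Sdha*, -0.051 to 0.060 for *Atp5f1b*, -0.065 to 0.063 for *Sdhd*, -0.081 to 0.065 for *Cox7a2l*, -0.15 to 0.11 for *Atp5if1*, -0.056 to 0.058 for *Cox6b1*, -0.19 to 0.013 for *Cox6a1* and -0.00031 to 0.19 for *Atp5mc2*.

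Replicate numbers belong to pups of different litters and were not used as pairs, since same-numbered pups correlated at -0.07 to 0.20 and 4 of 6 pairs, not all, exceeded 0.1. With the replicate block, in which control pup 7 has no partner, 17 members had an unadjusted p under 0.05 (12 higher, 5 lower) and 0 an adjusted p of at most 0.05 (limma), where 2955 of all rows had the former (1470 higher, 1485 lower) and 18 the latter, with medians of 0.60 and 0.05 for mitochondrial and nuclear rows. PTU exposed pups correlated best with their own number in 1 of 6 cases.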
